A study of Mus musculus with 7 samples.

Results

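Antigen presentation in the liver was examined through 10 genes, chosen by name from the 51426 genes of the count tables. They were 6 genes of the major histocompatibility complex (MHC) class I route (H2-K1, H2-D1, B2m, Tap1, Psmb8 and Psmb9) and 4 of the class II route (Cd74, H2-Aa, H2-Ab1 and H2-Eb1). Liver RNA was sequenced from 3 WT and 4 TET1 KO male mice on a C57BL/6J strain, all given a high-fat diet (HFD) for 16 weeks from 8 weeks of age, and the question was which genes differ when TET1, an enzyme that oxidises 5-methylcytosine in DNA, is missing throughout the body. The sample labels give the genotype of the KO mice as TET-1-TKO and do not name the allele. The study writes the sequenced mice as TET1-/- and TET1wt/wt, its notation for the constitutive whole-body KO line, which was bought on a mixed B6;129S4 background. The MHC haplotype of each mouse was not analysed here.

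Class I molecules present peptides from proteins made inside the cell. The immunoproteasome cuts these proteins, the TAP transporter carries the peptides into the endoplasmic reticulum, and a heavy chain bound to beta-2-microglobulin takes them to the surface of nearly every nucleated cell, hepatocytes included. Class II molecules present peptides of proteins taken up from outside and are found mainly on dendritic cells, macrophages and B cells, where the invariant chain holds them until they reach the endosome. Interferon gamma raises both routes, through the coactivators NLRC5 for class I and CIITA for class II.

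The libraries held 15005277 to 22746138 counts, of which the 10 genes took 0.326% to 0.444%. Tet1 itself had 1, 4 and 1 counts in WT and 2, 1, 4 and 1 in TET1 KO livers, so its RNA was too low to tell the genotypes apart. The 9 hepatocyte markers tested summed to between 75362 and 94201 CPM (counts divided by library size, after TMM scaling) in WT and between 85393 and 95285 CPM in TET1 KO. Of these 9, edgeR called 0 and DESeq2 called 1, where they called 2.02% and 9.14% of all genes. The 1 was Apoa1 (apolipoprotein A-I, log2 fold change 1.10, edgeR adjusted p = 0.0818, DESeq2 1.67e-06), and Apob was at -0.56 (adjusted p = 0.172). On leaving out 1 mouse, Apob ran from -0.75 (without WT replicate 1) to -0.31 (without WT replicate 2). Immune cell genes were low, Ptprc (CD45) at 6.67 to 14.8 CPM over the 7 livers. In bulk liver, fewer cells of a type and less RNA per cell cannot be told apart.

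In the GRCm38 build, 8 of the 10 genes lie in the MHC on chromosome 17, among them H2-K1 (chr17:33996012-34000619), H2-Aa (chr17:34282744-34287823), H2-Ab1 (chr17:34263227-34269418) and H2-Eb1 (chr17:34305867-34316674), while B2m lies on chromosome 2 (chr2:122147687-122153082). Promoter sequences from RefSeq (GRCm38.p6, 250 bases before to 50 after each start) were matched for 8 genes on these chromosomes. They are shown because the class I and class II genes are known for shared upstream elements, and the stretches below end at the base before the start. Capitals mark matches, on either strand, to CCAAT (the Y box letters), to TTCNNNGAA (a GAS), to the core of an interferon-stimulated response element (ISRE) and to the palindromic kappa B site of class I promoters.
H2-D1 (chr17:35262894-35263093, plus strand): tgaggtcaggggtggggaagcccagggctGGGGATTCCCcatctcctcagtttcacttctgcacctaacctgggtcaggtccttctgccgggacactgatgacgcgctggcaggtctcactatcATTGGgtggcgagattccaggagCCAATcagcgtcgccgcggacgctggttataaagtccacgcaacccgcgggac
B2m (chr2:122147487-122147686, plus strand): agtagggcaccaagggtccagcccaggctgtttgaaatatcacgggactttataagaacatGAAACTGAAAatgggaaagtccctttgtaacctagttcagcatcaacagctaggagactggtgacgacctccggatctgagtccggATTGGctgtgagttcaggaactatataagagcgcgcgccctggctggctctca
Psmb8 (chr17:34197995-34198194, plus strand): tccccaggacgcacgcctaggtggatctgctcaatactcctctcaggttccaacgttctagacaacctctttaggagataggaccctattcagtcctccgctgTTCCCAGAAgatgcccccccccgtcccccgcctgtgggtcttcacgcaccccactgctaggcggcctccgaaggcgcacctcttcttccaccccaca
Tap1 (chr17:34187331-34187555, plus strand): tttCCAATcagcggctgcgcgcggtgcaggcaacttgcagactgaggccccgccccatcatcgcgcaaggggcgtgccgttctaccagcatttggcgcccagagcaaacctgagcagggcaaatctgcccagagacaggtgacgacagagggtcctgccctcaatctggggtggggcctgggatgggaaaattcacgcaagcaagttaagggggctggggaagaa
H2-Aa (chr17:34287824-34288023, minus strand): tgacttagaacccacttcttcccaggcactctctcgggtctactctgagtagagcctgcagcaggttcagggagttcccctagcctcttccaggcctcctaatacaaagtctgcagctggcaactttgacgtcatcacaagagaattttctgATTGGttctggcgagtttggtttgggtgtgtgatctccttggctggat
H2-Eb1 (chr17:34305667-34305866, plus strand): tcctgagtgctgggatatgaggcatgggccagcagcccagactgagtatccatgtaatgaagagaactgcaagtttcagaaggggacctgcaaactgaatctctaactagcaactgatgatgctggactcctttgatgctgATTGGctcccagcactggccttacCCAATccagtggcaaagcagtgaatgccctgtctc

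Tap1 and Psmb9 are transcribed head to head, and the Tap1 stretch above is the whole of the 225 bases between their starts. The kappa B letters were found in H2-D1, starting at position -171 from the transcript start, and in H2-K1 at -111 or -125 from its 2 RefSeq starts, against 0.107% of 32851 promoters of the same length. The ISRE core was found in B2m at -139 (3.44% of promoters) and the GAS letters in Psmb8 at -97 (8.30%). CCAAT or its reverse complement was found in 7 of the 8 genes, all but Psmb8, and in 37.4% of all promoters. The matches of Tap1 (at -222) and Psmb9 (at -8) are the same site, counted for both genes. The X1 box letters CCNAGNAAC, searched for the class II genes, matched in none of these 8 genes and in 5.27% of all promoters. Only H2-Aa and H2-Eb1 among the 8 are class II genes. Only exact matches to the given letters were counted. An element that differs from them in a base was missed, so no match does not show that the element is absent. A match here is a description of letters and was not tested for binding.

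No antigen presentation gene passed the test between TET1 KO and WT livers. By edgeR's quasi-likelihood test with Benjamini-Hochberg adjustment, 0 of the 10 genes were called at an adjusted p under 0.05, against 2.02% of the 14754 genes tested. An unadjusted p under 0.05 was also reached by 0 of the 10, against 26.3% of all genes, and DESeq2 called 0, against 9.14% of the 14577 genes it gave an adjusted p. The WT and TET1 KO ranges did not overlap for 1 of the 10, Tap1, against 22.6% of all genes. The point estimates were above 0 in 9 of the 10, with a median log2 fold change of 0.15 over the 6 class I genes and 0.38 over the 4 class II genes, beside 0.01 over all genes tested. No gene of either class was called under any of 14 alternative settings.

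**Figure D1:**
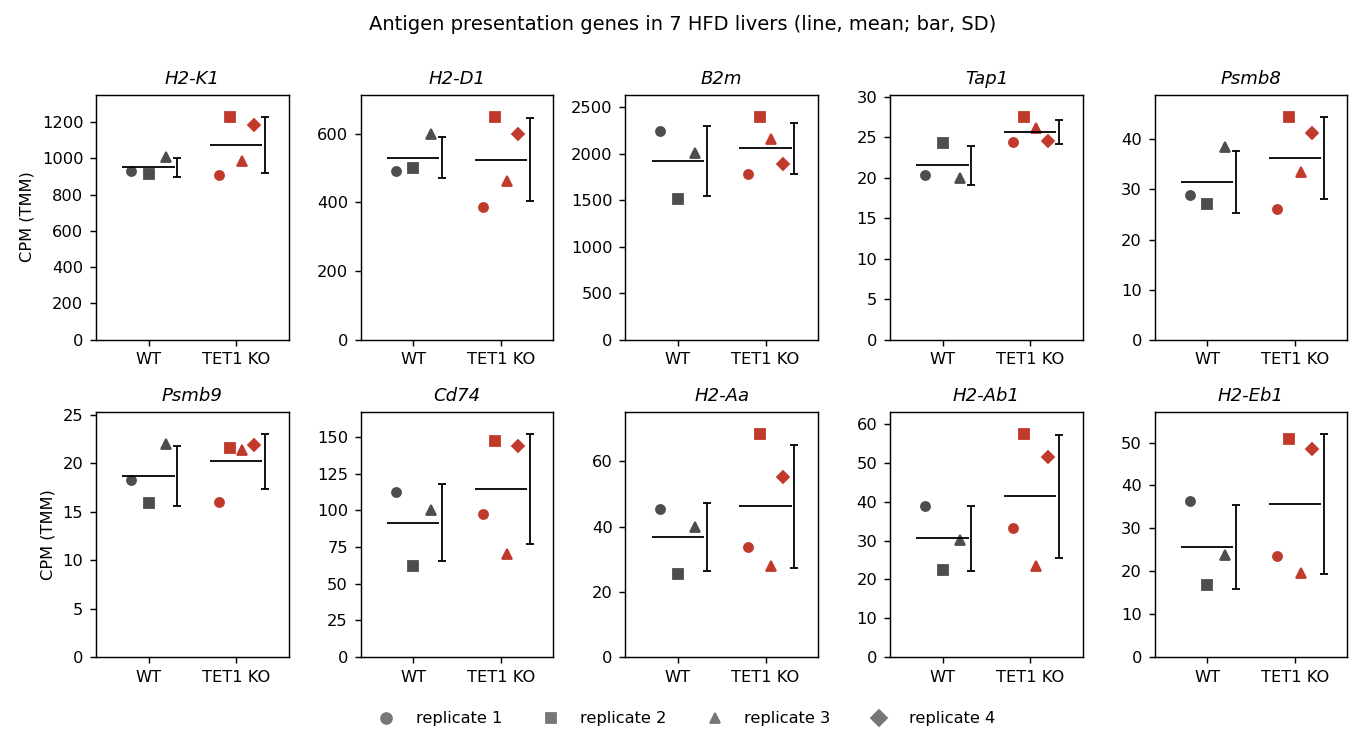
Level of each antigen presentation gene (CPM after TMM scaling, axis from 0) in every WT (grey) and TET1 KO (red) liver; the symbol gives the replicate number, the line the group mean and the bar the SD (n = 3 and 4). Only Tap1 has groups that do not overlap, and in all 4 class II genes TET1 KO replicates 2 and 4 are the highest livers.

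H2-K1 and H2-D1 encode the class I heavy chains that hold the peptide. H2-K1 was measured at 929.9, 912.5 and 1007.9 CPM in WT livers and at 906.9, 1227.3, 986.7 and 1182.9 CPM in TET1 KO livers. Its lowest and its highest value were both in TET1 KO mice, and the means were 950.1 ± 50.8 (SD, n = 3) and 1076 ± 154 (SD, n = 4). The log2 fold change was 0.18 (SE 0.18, 95% interval -0.21 to 0.57, adjusted p = 0.529). On leaving out 1 mouse it ran from 0.097 (without TET1 KO replicate 2) to 0.25 (without TET1 KO replicate 1), and by library size only it was 0.088. H2-D1 was at 492.6, 498.9 and 598.5 CPM in WT and at 387.4, 649.5, 461.7 and 598.5 CPM in TET1 KO. The WT values lay inside the TET1 KO range, and the log2 fold change was -0.02 (SE 0.20, interval -0.45 to 0.42, adjusted p = 0.967), whose sign was not stable to leaving out single mice. Reads of the heavy chains can be shared among relatives: 8.87% of the 50-base words of H2-K1 transcripts and 14.3% of those of H2-D1 also occurred in another gene. Both levels are therefore uncertain, by an amount that these shares do not give.

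B2m, beta-2-microglobulin, is the light chain that every class I heavy chain needs. It was the most abundant of the 10 genes, at 2248.8, 1514.3 and 2012.0 CPM in WT and 1779.5, 2396.5, 2160.7 and 1893.0 CPM in TET1 KO. TET1 KO replicate 2 was the highest of the 7 livers and the other TET1 KO livers fell within the WT range, with a log2 fold change of 0.10 (SE 0.22, interval -0.38 to 0.58, adjusted p = 0.800). Without WT replicate 2, the lowest liver for B2m, it was -0.06.

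Tap1 encodes a subunit of the peptide transporter. It was at 20.4, 24.3 and 20 CPM in WT and at 24.5, 27.5, 26.2 and 24.5 CPM in TET1 KO. The lowest TET1 KO liver was just above the highest WT liver, WT replicate 2, and TET1 KO lay above WT without overlap in 11.7% of all genes tested. The log2 fold change was 0.25 (SE 0.13, interval -0.04 to 0.54, adjusted p = 0.243), between 0.15 and 0.34 over the alternatives. The partner subunit Tap2 was at 22.6 ± 2.25 CPM in WT and 20.2 ± 3.91 CPM in TET1 KO, with a log2 fold change of -0.16 (SE 0.17, adjusted p = 0.549).

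Psmb8 and Psmb9 encode catalytic subunits that replace Psmb5 and Psmb6 in the immunoproteasome. Psmb8 was at 28.9, 27.1 and 38.5 CPM in WT and 26.1, 44.4, 33.5 and 41.2 CPM in TET1 KO, with a log2 fold change of 0.21 (SE 0.20, interval -0.23 to 0.64, adjusted p = 0.516). Psmb9 was at 18.2, 15.9 and 22 CPM in WT and 16.0, 21.6, 21.4 and 21.9 CPM in TET1 KO, with a log2 fold change of 0.11 (SE 0.16, interval -0.25 to 0.48, adjusted p = 0.683). In TET1 KO mice, 3 of the 4 Psmb9 values lay close together at the top of the WT range and TET1 KO replicate 1 lay at its bottom. On leaving out 1 mouse, Psmb8 ran from 0.084 (without TET1 KO replicate 2) to 0.36 (without WT replicate 3) and Psmb9 from 0.0022 (without WT replicate 2) to 0.23 (without WT replicate 3). Over the 6 class I genes the 95% intervals reached from 0.73-fold to 1.56-fold of WT at their widest.

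The exchange of subunits was also read as a ratio within each liver. The log2 ratio of Psmb8 to Psmb5 was -1.37 ± 0.35 (SD, n = 3) in WT and -1.20 ± 0.33 (SD, n = 4) in TET1 KO, a difference of 0.17 (exact two-sided permutation test, p = 0.514, adjusted over 3 ratios 0.514). The ratio of Psmb9 to Psmb6 differed by -0.34 (exact permutation p = 0.143, adjusted 0.214) and that of Psmb10, the remaining immunosubunit, to Psmb7 by 0.69 (exact permutation p = 0.0857, adjusted 0.214). The smallest p this design allows is 0.0286, and the groups overlapped for all 3 ratios. On leaving out 1 mouse, the Psmb8 to Psmb5 difference ran from 0.0039 (without WT replicate 1) to 0.35 (without WT replicate 3), the Psmb9 to Psmb6 difference from -0.46 to -0.18 (without TET1 KO replicates 4 and 1) and the Psmb10 to Psmb7 difference from 0.56 to 0.85. Among the constitutive subunits, 0 of 3 were called by edgeR or DESeq2 (2.02% and 9.14% of all genes) and 1 had an unadjusted p under 0.05 (26.3% of all genes). Psmb6 had a log2 fold change of 0.45 (adjusted p = 0.111), while Psmb5 was at 0.02 and Psmb7 at -0.07.

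The class II genes had far more spread among mice of 1 genotype, and their point estimates depended on single mice. Without WT replicate 2 the log2 fold changes were 0.10 for Cd74, 0.11 for H2-Aa, 0.25 for H2-Ab1 and 0.24 for H2-Eb1, and without TET1 KO replicate 2 they were 0.17, 0.07, 0.23 and 0.24. Without WT replicate 1 they were 0.49, 0.50, 0.65 and 0.81, and without TET1 KO replicate 3 they were 0.49, 0.50, 0.62 and 0.67. Cd74, the invariant chain (chr18:60803849-60812652), was at 112.9, 62.1 and 100.1 CPM in WT and 97.3, 147.1, 70.2 and 144.2 CPM in TET1 KO. TET1 KO replicates 2 and 4 exceeded every WT liver, while replicates 1 and 3 fell within the WT range. The means were 91.7 ± 26.4 (SD, n = 3) and 115 ± 37.4 CPM (SD, n = 4), with a log2 fold change of 0.32 (SE 0.27, 95% interval -0.27 to 0.92, adjusted p = 0.458).

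H2-Aa and H2-Ab1 encode the alpha and beta chains of the A molecule. H2-Aa was at 45.3, 25.3 and 40.0 CPM in WT and 33.6, 68.4, 28.0 and 55.2 CPM in TET1 KO, with a log2 fold change of 0.33 (SE 0.30, interval -0.33 to 0.99, adjusted p = 0.4996). H2-Ab1 was at 39.0, 22.4 and 30.3 CPM in WT and 33.2, 57.5, 23.5 and 51.7 CPM in TET1 KO, with a log2 fold change of 0.44 (SE 0.29, interval -0.20 to 1.08, adjusted p = 0.346). Both chains ordered the 4 TET1 KO livers the same way, replicate 2 first, then 4, 1 and 3. H2-Eb1 encodes the beta chain of the E molecule, whose alpha chain C57BL/6 mice are known not to make. It was at 36.3, 16.8 and 23.8 CPM in WT and 23.6, 50.8, 19.5 and 48.6 CPM in TET1 KO, with a log2 fold change of 0.48 (SE 0.35, interval -0.30 to 1.26, adjusted p = 0.402). The coefficient of variation of the 4 genes was 27.3% to 38.6% in WT and 32.6% to 45.8% in TET1 KO, against 5.35% to 19.5% and 5.72% to 23.1% for the class I genes. The 95% intervals of the class II genes accordingly reached from 0.79-fold to 2.39-fold of WT.

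Levels between genes were compared per kilobase of exon (GENCODE M1 lengths, found for 9 of the 10, Psmb9 not among them). The length was that of all annotated exons joined. For some genes it far exceeded the longest protein-coding transcript, with 1987 against 1132 bases for H2-Aa and 2736 against 1628 for Psmb8. For H2-Eb1 it was 1189 against 1178, so the order of the class II chains and Psmb8 depends on the length used. B2m had a median of 2339 CPM per kb over the 7 livers, followed by H2-K1 at 378 and H2-D1 at 193, and none of these 3 ranges overlapped. Cd74 came next at 71.0 CPM per kb (44.1 to 104), above H2-Ab1 at 20.2, H2-Aa at 20.1 and H2-Eb1 at 20, whose ranges overlapped largely. Psmb8 at 12.3 (9.56 to 16.2) overlapped the lower end of the class II chains, and Tap1 was lowest at 4.47 (3.65 to 5.02).

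The 4 class II genes varied together from liver to liver. Over the 7 mice, Pearson's r of log2 CPM was 0.96 to 0.98 among their 6 pairs, given as a description, since the genes share libraries and scaling. The 15 class I pairs had r from -0.00 to 0.94 with a median of 0.56. Summed over the class, class II was at 234, 127 and 194 CPM in WT and 188, 324, 141 and 300 CPM in TET1 KO, a 2.56-fold range over all mice. WT replicate 2 was the lowest and TET1 KO replicate 2 the highest. Class I summed to 3739, 2993 and 3699 CPM in WT and 3140, 4367, 3690 and 3762 CPM in TET1 KO, a 1.46-fold range.

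**Figure D2:**
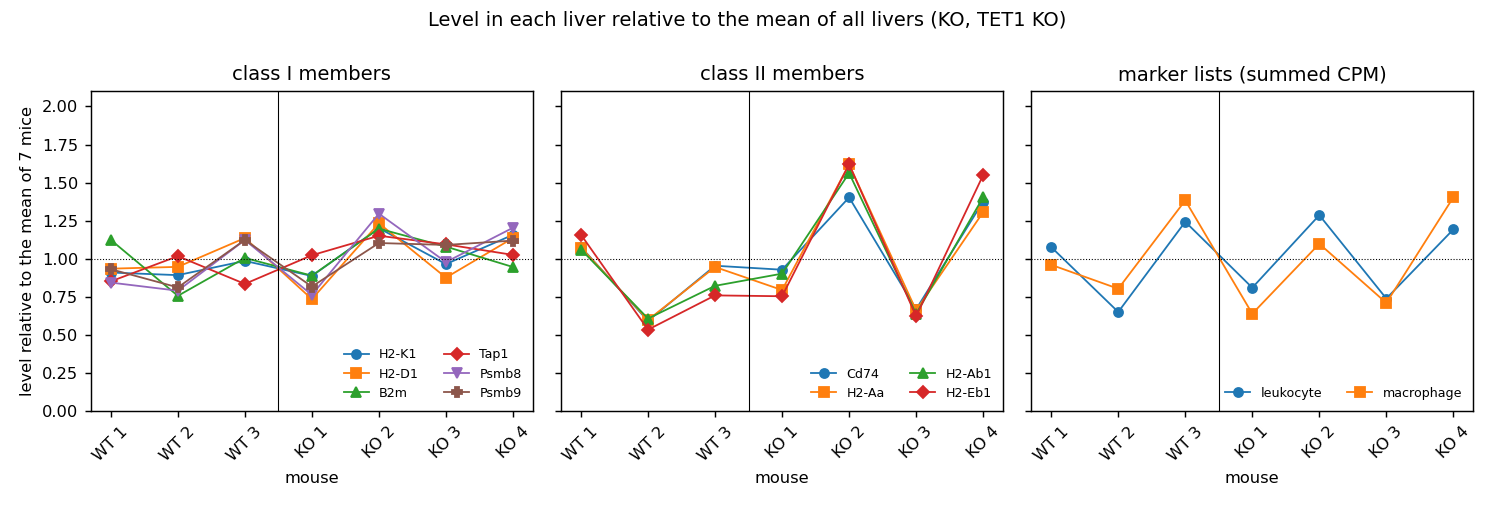
Level in each liver relative to the mean of the 7 livers (no unit, linear axis from 0), for the 6 class I genes, the 4 class II genes and the summed CPM of leukocyte and macrophage markers; the vertical line separates WT from TET1 KO and lines join values of 1 gene or list. The class II genes trace nearly 1 shared profile, with TET1 KO replicates 2 and 4 high and WT replicate 2 and TET1 KO replicate 3 low.

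Markers of the cells that carry class II moved with that profile in part. The 7 leukocyte markers, with 0 called, summed to 77.0, 46.6 and 88.9 CPM in WT and 58.0, 92.0, 52.9 and 85.3 CPM in TET1 KO, so WT replicate 2 was lowest and TET1 KO replicate 2 highest here as well. The 12 macrophage markers (0 called) summed to 396, 331 and 570 CPM in WT and 263, 452, 293 and 578 CPM in TET1 KO. Unlike class II, they were lowest in TET1 KO replicate 1 and highest in TET1 KO replicate 4. Adgre1 (F4/80) was at a log2 fold change of -0.46 (adjusted p = 0.238), Cd5l at -0.43 (adjusted p = 0.364) and Clec4f, a Kupffer cell gene, at 0.02. Without TET1 KO replicate 4, Adgre1 was at -0.72 and Cd5l at -0.64. The values nearest 0 were -0.36 for Adgre1 (without WT replicate 3) and -0.21 for Cd5l (without TET1 KO replicate 1). B cell markers (9 of 10 tested, all 9 estimates above 0) summed to 26.8, 13.5 and 32.8 CPM in WT and 24.7, 63.3, 35.6 and 27.2 CPM in TET1 KO. They were again lowest in WT replicate 2 and highest in TET1 KO replicate 2. Unlike class II, TET1 KO replicate 3 lay above TET1 KO replicate 4. Igkc (74 to 386 counts) and Ighm (103 to 293 counts) were the most abundant of the list. Of the 9, edgeR and DESeq2 called 0 (2.02% and 9.14% of all genes), 3 had an unadjusted p under 0.05 (26.3%) and 2 lay wholly above WT in TET1 KO (11.7%). Of the 9 dendritic cell markers only 5 were abundant enough to test, and 0 were called. The sum of the list, 16.3 to 18.9 CPM in TET1 KO, lay above the 12.4 to 15.8 CPM of WT. Of single genes 11.7% did so, a share that need not hold for a sum. Most of the dendritic sum came from Zbtb46 (92 to 176 counts) and Clec9a (60 to 120 counts), and the other 7 markers had 0 to 42 counts. Defining markers were few in counts: Itgax at 0.72 to 2.60 CPM, Cd79a at 0.29 to 1.27, and Flt3 and Cd3e at up to 0.63 and 0.77 CPM. None of these was at 0 in any liver, while Cd209a, another dendritic marker, had 0 to 15 counts.

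Divided by the summed leukocyte markers of the same liver, the class II sum was 3.03, 2.72 and 2.18 in WT and 3.24, 3.52, 2.67 and 3.51 in TET1 KO. Divided by the macrophage markers it was 0.34 to 0.59 in WT and 0.48 to 0.72 in TET1 KO. Divided by the dendritic cell markers it was 10.2 to 14.8 in WT and 8.69 to 17.1 in TET1 KO, and divided by the B cell markers 5.92 to 9.40 and 3.97 to 11.0. The groups overlapped on all 4 scales. The part of cell composition in the class II levels was not tested beyond these values.

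By the rule for likeness, the 5 tested genes whose levels followed the class II mean most closely over the 7 mice were Emp3, Gm43759, Adam15, Oxct1 and Fdps (r 0.96 to 0.98). For class I they were Rtraf, Ms4a8a, Rps18-ps3, Gm12174 and Gm10073 (r 0.97 to 0.99). These are the highest of 14754 correlations over 7 mice and are given as a description only.

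Beyond these 10 genes, the transcriptional coactivator of class I genes was among the few genes of the route that passed. Nlrc5 (chr8:94434335-94527272) was at 22.4, 16.8 and 21.1 CPM in WT and 38.0, 34.2, 37.9 and 27.0 CPM in TET1 KO, all 4 above every WT liver. Its log2 fold change was 0.77 (SE 0.16, interval 0.41 to 1.13, adjusted p = 0.0437 by edgeR, 0.00291 by DESeq2). Of the 16 tested regulators no other was called, in a table where 0.874% of genes were called higher. The call was lost (adjusted p 0.0522 to 0.206, log2 fold change 0.65 to 0.85) when any mouse but TET1 KO replicate 4 was left out. Its class II counterpart Ciita was at 0.89, 0.29 and 1.16 CPM in WT and 1.19, 1.27, 0.92 and 1.71 CPM in TET1 KO (log2 fold change 0.76, SE 0.44, adjusted p = 0.286), between 0.32 without WT replicate 2 and 1.14 without WT replicate 3. Irf1, an interferon-induced transcription factor, had a log2 fold change of 0.52 (SE 0.18, adjusted p = 0.112). In all, 5 of the 16 regulators had an unadjusted p under 0.05, close to the 26.3% of all genes.

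**Figure D3:**
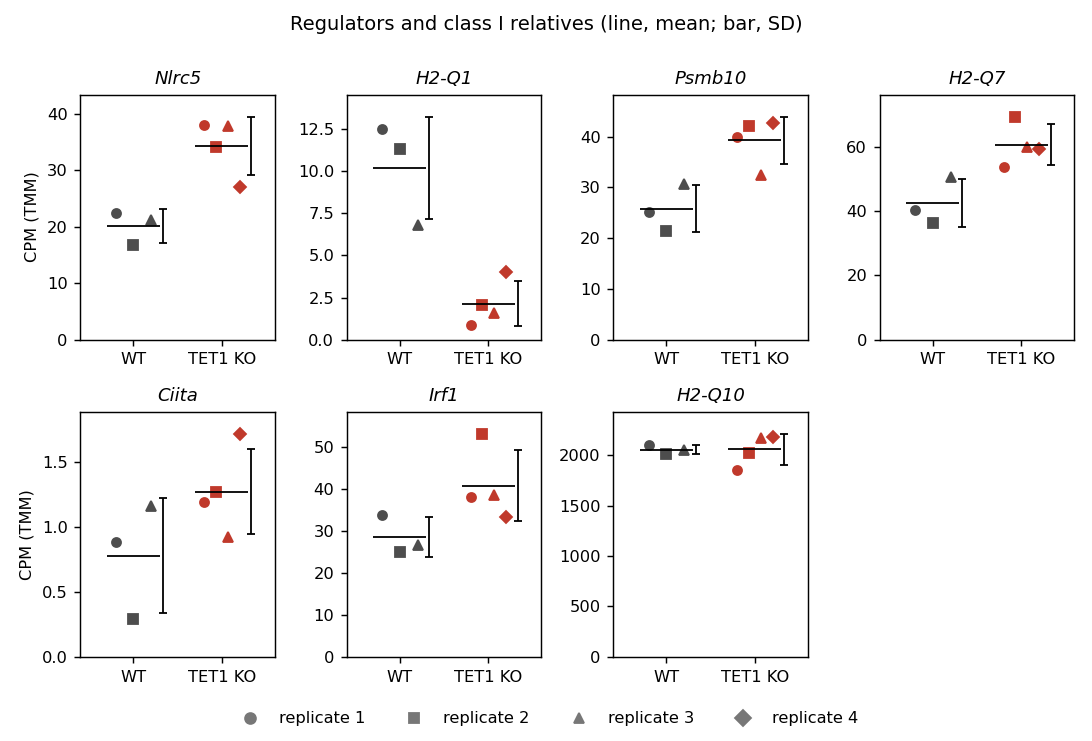
Level (CPM after TMM scaling, axis from 0) of regulators and class I relatives in every WT (grey) and TET1 KO (red) liver; line, mean; bar, SD; symbols, replicate numbers. Nlrc5, Psmb10 and H2-Q7 lie higher and H2-Q1 lower in all 4 TET1 KO livers, while Ciita, Irf1 and H2-Q10 overlap.

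The class I relatives, the nonclassical heavy chains, split in direction. H2-Q1 (chr17:35320525-35328142) was at 12.5, 11.3 and 6.78 CPM in WT and 0.88, 2.04, 1.58 and 4.03 CPM in TET1 KO, a log2 fold change of -2.23 (SE 0.39, interval -3.10 to -1.36, adjusted p = 0.0214). It was the only one of 14 tested relatives called, where 1.15% of all genes were called lower. Its adjusted p was 0.0519 without WT replicate 1, 0.118 without WT replicate 2, 0.0603 without TET1 KO replicate 2 and 0.0735 without TET1 KO replicate 3. The log2 fold changes in those fits were -2.07, -2.16, -2.22 and -2.12. H2-Q4, H2-Q6 and H2-Q7 each exceeded every WT liver in all 4 TET1 KO mice (log2 fold changes 0.38, 0.47 and 0.51, respectively), as 11.7% of all genes did, with adjusted p of 0.155, 0.0973 and 0.0814, and of these DESeq2 called H2-Q7. The largest positive estimate among the relatives was that of H2-Bl, at 1.92 (SE 0.64, adjusted p = 0.101), a gene with 4 to 45 counts whose groups overlapped. H2-Q10, the abundant secreted class I protein gene of liver, was at 2056 ± 41.3 CPM in WT and 2058 ± 152 CPM in TET1 KO. Mr1, which presents vitamin B metabolites, had a log2 fold change of -0.99 (adjusted p = 0.0778, DESeq2 0.0372) and lay below WT in all 4 TET1 KO livers, as 10.9% of all genes did. In these families 22.9% of the 50-base words of H2-Q1 and 27.0% of those of H2-Q7 occurred in another gene, so the division of reads among them is uncertain.

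**Figure D4:**
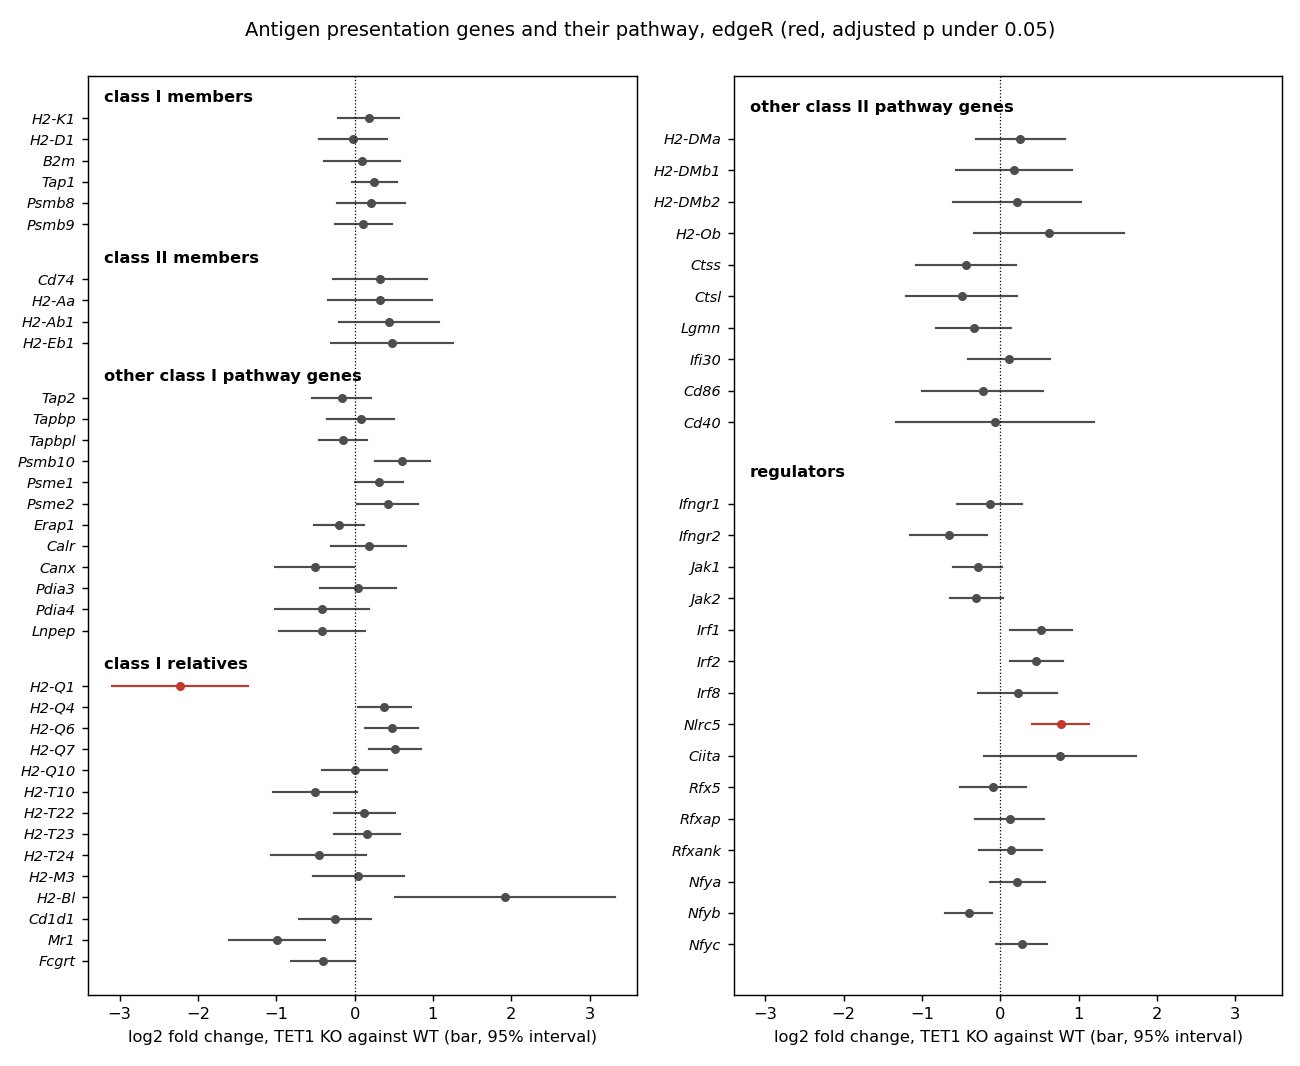
Log2 fold change of TET1 KO against WT with its 95% interval for the class I and class II genes, the other genes of both pathways, the class I relatives and 15 of the 16 tested regulators (edgeR; red, adjusted p under 0.05). The intervals of all 10 antigen presentation genes include 0, and H2-Q1 and Nlrc5 are the only genes in red.

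Among the 12 other class I pathway genes, 0 were called by edgeR, 1 by DESeq2, and 4 had an unadjusted p under 0.05 (median log2 fold change -0.05), beside 2.02%, 9.14% and 26.3% of all genes. The gene that DESeq2 called was Psmb10, at 25.8 ± 4.61 CPM in WT and 39.2 ± 4.65 CPM in TET1 KO, with TET1 KO above WT in every liver, as in 11.7% of all genes (log2 fold change 0.61, SE 0.16, edgeR adjusted p = 0.0665, DESeq2 0.0202). The proteasome activator subunit gene Psme2 was at 0.42 (SE 0.18, adjusted p = 0.165), and Canx, the chaperone calnexin, at -0.51 (SE 0.23, adjusted p = 0.188). On leaving out 1 mouse, Psme2 ran from 0.27 (without WT replicate 2) to 0.52 (without WT replicate 1). Of 10 tested class II pathway genes, 0 were called by edgeR or DESeq2 and 0 had an unadjusted p under 0.05 (median 0.02). Estimates were above 0 in 5 of the 10 and below 0 in 5. The lysosomal protease genes Ctsl at -0.49 (SE 0.32, adjusted p = 0.342), Lgmn at -0.34 (SE 0.22, adjusted p = 0.334) and Ctss at -0.44 (SE 0.29, adjusted p = 0.350) were not called, and without TET1 KO replicate 1 Ctsl was at -0.23 and Lgmn at -0.19. Of 17 tested interferon gamma targets, 0 were called by either tool and 2 had an unadjusted p under 0.05 (26.3% of all genes), Gbp6 at -0.69 and Igtp at -0.40 (adjusted p 0.148 and 0.152), with a median of -0.14 over the list.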

How the data were processed

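Liver mRNA of 3 WT and 4 TET1 KO male mice on an HFD (16 weeks) was used, with groups and replicate numbers taken from the labels. The authors deposited raw read counts per gene and mouse, not normalized; the submitters' processing notes name Trimmomatic 0.36, GSNAP, featureCounts 1.5.3 and GRCm38. The strand and multiple-mapping settings of the counting are not given in the sources used here, and the labels name poly(A) selection and rRNA removal as alternatives. Tables were joined by Ensembl identifier.

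Counts were tested with edgeR 4.0.16 in R 4.3.3: filterByExpr, TMM scaling and the quasi-likelihood test on all 14754 kept genes, without covariates, with Benjamini-Hochberg adjustment over all of them. The F statistic and the estimate gave each standard error. CPM values were scaled by TMM, with a prior count of 2 on the log2 scale. Proteasome ratios were compared by exact permutation over the 35 splits of the mice. Labels do not name litters or cages, so p-values measure the spread between these mice. On simulated counts for 14754 genes, edgeR recovered 56 of 85 genes changed by 1 on the log2 scale and 107 of 115 changed by 2, with 17 false calls.

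The alternatives were DESeq2 1.42.0, other scalings and filters, robust dispersions, a replicate block and leaving out each mouse. The 10 genes and all lists were chosen with earlier results of these data known. The text names the 10 genes, main regulators, constitutive subunits and defining markers (some are not reported here), every list gene called, in lists without a call the 2 genes of smallest p, and the 5 genes most like each class. H2-Q4, H2-Q6, H2-Q7, H2-Q10, H2-Bl, Mr1, Tap2, Canx, Ctss and Cd209a were added after their values were seen. Promoters came from RefSeq GRCm38.p6. Shared 50-base words and exon lengths came from GENCODE M1 (NCBIM37), used for sequence only.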

Additional observations from a re-analysis of the deposited data

Results flagged for a closer look

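Within the 4 TET1 KO mice, the gap between the most extreme value and its neighbour, divided by the group's range, passed Dixon's 95% critical value in 5 of 66 items (49 genes and 17 summed lists), where chance gives about 3.3. For Psmb9 the value was 0.906, with TET1 KO replicate 1 at 16.0 CPM and the next liver at 21.4. For Rgs5, a pericyte and stellate cell gene, it was 0.896, with TET1 KO replicate 2 at 13.7 CPM and the next at 16.2. The summed constitutive proteasome subunits reached 0.875 (TET1 KO replicate 4, 378 CPM against 417), and the dendritic cell markers 0.835 (TET1 KO replicate 3, 16.3 CPM against 18.5). The T and NK cell markers reached 0.867, with TET1 KO replicate 2 at 14.1 CPM and the next liver at 7.82. That mouse was also the highest for all 4 class II genes.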

How the results depend on the processing

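No antigen presentation gene was called in any of 14 refits. The sign of the estimate turned in 4 of the 140 results (10 genes in 14 refits). On leaving out 1 mouse, the log2 fold change ranged from -0.15 to 0.11 for H2-D1 (above 0 without WT replicate 3 or TET1 KO replicate 1 or 3) and from -0.058 to 0.21 for B2m (below 0 without WT replicate 2). Signs also turned in genes near 0, with ranges of -0.065 to 0.13 for Psmb5, -0.19 to 0.32 for Ptprc, -0.21 to 0.27 for Clec4f, -0.26 to 0.098 for Cd3e and -0.24 to 0.052 for Alb. Psmb5 was also at -0.0021 in DESeq2, -0.074 by library size only and -0.0057 with no filter on low counts, Clec4f at -0.054 by library size only and -0.18 with the replicate block, and Ptprc at -0.023 with the block. The cause was not tested.

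Over all genes, the 129 called higher became 633 in DESeq2, 245 with no filter on low counts, and 16 (without WT replicate 2) to 427 (without TET1 KO replicate 4) on leaving out 1 mouse. The 169 called lower became 699, 347, 312 by library size only, and 21 to 464. Scaling by library size alone lowered the share of higher calls from 43.3% to 25.5%. DESeq2 called 1 class I pathway gene and 3 class I relatives in place of 0 and 1. Leaving out 1 mouse left 0 to 2 relatives and 0 to 1 regulators called. Of the same-numbered mice, those numbered 1 deviated together somewhat (r 0.21) and those numbered 2 and 3 did not (-0.12 and -0.10), so the numbers were not taken to pair the mice. The replicate block could use only the 6 mice with shared numbers, without TET1 KO replicate 4, an omission that alone gave 427 and 464. In that fit 697 genes were called higher and 686 lower, 0 of the 10 genes, 3 relatives, 2 regulators and 1 interferon gamma target, so the move cannot be put down to the block alone.

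The median 95% interval, without adjustment, reached 0.44 on either side of a log2 fold change over all genes. Smaller differences in single genes were mostly not detectable with 7 mice. A call on adjusted p needs more than this: Psmb10 at 0.61 was not called by edgeR. In the simulation, 56 of 85 genes changed by 1 were recovered. Low markers such as Flt3 rest on few counts.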

Other observations

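Other cells of the liver that can carry antigen presentation genes were read from their marker lists. The 5 tested cholangiocyte markers all had estimates above 0 (median log2 fold change 1.22), with 0 called by edgeR, 4 at an unadjusted p under 0.05 and 2 called by DESeq2, beside 2.02%, 26.3% and 9.14% of all genes. Their sum was 29.7 to 37.9 CPM in WT and 46.2 to 67.9 CPM in TET1 KO, with no overlap. Of the 5 single markers, 3 lay wholly above WT in TET1 KO, beside 11.7% of all genes. Most of the sum came from Spp1 (358 to 844 counts) and Sox9 (100 to 296 counts). The lowest counts of Krt19, Krt7 and Epcam were 15, 9 and 5. Sox9, a duct transcription factor, had a log2 fold change of 1.22 (SE 0.29, edgeR adjusted p = 0.0569, DESeq2 0.00286, and 0.0259 without TET1 KO replicate 4), and Spp1, osteopontin, of 0.58 (SE 0.17, adjusted p = 0.0859). T and NK cell markers (6 of 11 tested) had 0 called by edgeR or DESeq2 and 1 at an unadjusted p under 0.05, Cd4 at 1.13 (SE 0.36, adjusted p = 0.0954, and 0.0460 without TET1 KO replicate 4), while Nkg7 was at 1.18 (adjusted p = 0.204). The lowest p in the other immune lists, none of them called, were those of Jchain at 0.98 and Cd79b at 0.88 for B cells (adjusted p 0.107 and 0.173), Siglech at 0.91 and Zbtb46 at 0.38 for dendritic cells (0.201 and 0.250), and Cd53 at -0.40 and Cd52 at 0.35 for leukocytes (0.492 and 0.518). Leaving out 1 mouse gave ranges of 0.65 to 1.31 for Jchain, 0.58 to 1.03 for Cd79b and 0.58 to 1.22 for Siglech. The ranges were 0.20 to 0.46 for Zbtb46, -0.67 to -0.12 for Cd53 and 0.024 to 0.55 for Cd52. The 9 endothelial markers summed to 258 to 286 CPM in WT and 255 to 299 CPM in TET1 KO, and 0 were called by edgeR and 1 by DESeq2. Stab2, a sinusoidal endothelial scavenger receptor, was at 35.8 ± 0.995 CPM (SD, n = 3) in WT and 33.8 ± 3.70 CPM (SD, n = 4) in TET1 KO. Lyve1, a hyaluronan receptor of sinusoidal endothelium, was the marker DESeq2 called (log2 fold change -1.08, SE 0.30, edgeR adjusted p = 0.0778, DESeq2 0.0140), and Pecam1 (CD31) was at -0.42 (SE 0.19, edgeR adjusted p = 0.19996). Of 8 stellate cell markers, edgeR called 1, Rgs5, lower in TET1 KO (log2 fold change -0.67, SE 0.15, adjusted p = 0.0460), and DESeq2 called 3, where edgeR called 1.15% of all genes lower and DESeq2 9.14% in either direction. The adjusted p of Rgs5 was 0.0522 to 0.206 (log2 fold change -0.76 to -0.54) when any mouse but TET1 KO replicate 4 was left out, and 0.0530 (-0.68) with the replicate block. The part of these cells in the levels of the class I or class II genes was not tested.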
